A study of Homo sapiens with 4 samples.

Results

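10 genes for amino acid transporters were followed in a human cell line with lowered FYB1: SLC7A5, SLC3A2, SLC7A11, SLC7A1, SLC7A6, SLC1A4, SLC1A5, SLC38A1, SLC38A2 and SLC43A1. They were chosen by symbol in GENCODE 29, and all 10 were found among the 28274 genes of the deposited table. RNA sequencing measured messenger RNA in 2 FYB1 knockdown libraries and 2 control libraries of the line that the labels call J-gammal. The control titles carry the letters NC and their source name says no treatment, and no source used here says if they received a construct of their own. The labels leave unsaid if both knockdown libraries share 1 construct and if the libraries within a group are separate cultures. The p-values below thus reflect the spread of these 4 libraries, which may be technical.

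Amino acid transporters of the plasma membrane supply proliferating lymphocytes with the building blocks of protein, nucleotides and glutathione. SLC7A5, SLC7A6 and SLC7A11 are light chains that carry substrates only when paired with the heavy chain SLC3A2, also called CD98. SLC7A5 exchanges large neutral amino acids such as leucine, often against glutamine, which SLC1A5, SLC38A1 and SLC38A2 bring into cells. Several of these genes are known targets of ATF4, the factor of the amino acid response, and of MYC.

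The libraries held 16693113 and 20251864 reads in the knockdown and 17597678 and 17216663 reads in the controls, counted as whole reads recovered from the deposited FPKM values. Genes of the mitochondrial genome took 4.92% and 5.14% of reads in the knockdown libraries, against 4.09% and 4.03% in the controls. FPKM stands for reads or fragments scaled to exon length and to a total for the library. FYB1 itself stood at 6.18 and 4.53 FPKM in the knockdown libraries, against 17.6 and 20.1 FPKM in the controls, and fell (limma-trend adjusted p = 0.0398). All 9 T cell markers examined were present, with a summed level of 1062 and 1303 FPKM in the knockdown libraries and 1445 and 1338 FPKM in the controls. Of the 9, 7 had negative fold changes by limma-trend (median -0.38, beside -0.03 for all tested genes), and limma-voom called CD3D lower (adjusted p = 0.0200). That median was -0.054 under quantile normalization. Of the B cell markers, CD79A stood at 11.1 and 15.8 FPKM in the knockdown libraries and 24.5 and 21.2 FPKM in the controls and was called lower (limma-voom adjusted p = 0.0297), while MS4A1 had at most 2 reads in any library. The calls of CD3D and CD79A ended without knockdown library 1 and without control 1. That of CD79A also ended with read sums as library totals and after quantile normalization (limma-voom adjusted p = 0.0592 and 0.0509). The myeloid markers summed to at most 0.437 FPKM. The part of these markers and of the mitochondrial share in the results below was not tested.

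Promoter sequence was available for 9 of the 10 genes, in 16 windows from 250 bases before to 50 bases after a RefSeq start (GRCh38.p14). SLC7A11 had no entry. The windows were searched on both strands for 3 short motifs: TGATGNAA, the core of the element bound by ATF4 with C/EBP factors; CACGTG, the E-box bound by MYC with MAX; and TGACNNNGC, the antioxidant response element bound by NFE2L2. Of all 35116 windows, 3.62% held the first, 7.26% the second and 13.3% the third. The following windows belong to the pair of genes with the lowest fold changes and to the neighbours SLC38A1 and SLC38A2. Where a gene had several windows, the one with most matches is shown, 5′ to 3′, with matches in capitals.
SLC1A5 (chr19:46787244-46787543, minus strand): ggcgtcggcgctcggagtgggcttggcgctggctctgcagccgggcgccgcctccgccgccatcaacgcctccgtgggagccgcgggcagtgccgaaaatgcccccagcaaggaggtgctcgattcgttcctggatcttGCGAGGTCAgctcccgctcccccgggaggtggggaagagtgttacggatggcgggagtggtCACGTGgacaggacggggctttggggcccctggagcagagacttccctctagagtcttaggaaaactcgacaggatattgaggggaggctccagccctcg
SLC3A2 (chr11:62881449-62881748, plus strand): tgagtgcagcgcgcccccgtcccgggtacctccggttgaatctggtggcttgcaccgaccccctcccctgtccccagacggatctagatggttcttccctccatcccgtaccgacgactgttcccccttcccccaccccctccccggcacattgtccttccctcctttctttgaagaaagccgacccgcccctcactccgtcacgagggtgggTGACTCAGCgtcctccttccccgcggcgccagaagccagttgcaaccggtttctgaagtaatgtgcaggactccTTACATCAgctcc
SLC38A1 (chr12:46266467-46266766, minus strand): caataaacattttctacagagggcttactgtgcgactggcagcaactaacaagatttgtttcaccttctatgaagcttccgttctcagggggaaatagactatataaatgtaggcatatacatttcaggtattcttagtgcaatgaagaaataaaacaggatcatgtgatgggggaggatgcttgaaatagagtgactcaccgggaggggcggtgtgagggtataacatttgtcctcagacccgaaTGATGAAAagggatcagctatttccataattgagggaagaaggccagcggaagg
SLC38A2 (chr12:46372724-46373023, minus strand): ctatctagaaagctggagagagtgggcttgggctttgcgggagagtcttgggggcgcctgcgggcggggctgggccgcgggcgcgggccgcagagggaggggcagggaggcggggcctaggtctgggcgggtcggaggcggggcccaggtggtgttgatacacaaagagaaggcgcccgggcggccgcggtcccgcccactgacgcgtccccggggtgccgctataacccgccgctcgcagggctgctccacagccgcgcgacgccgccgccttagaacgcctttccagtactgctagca
In the SLC1A5 window the capitals mark an antioxidant motif on the opposite strand and an E-box. In the SLC3A2 window they mark an antioxidant motif and, after the start, an ATF4 motif on the opposite strand. The SLC38A1 window held an ATF4 motif that spans the start, and the SLC38A2 window held none of the 3. The other windows of SLC1A5, SLC3A2 and SLC38A1 held an ATF4 motif in 1 window of SLC1A5 and none otherwise. The windows shown for these genes were picked by matches and lie inside the annotated genes. Their windows nearest the annotated 5′ ends held none of the 3 motifs. Over all 16 windows, the ATF4 motif was found in 5 (SLC3A2, SLC7A1, SLC1A4, SLC1A5 and SLC38A1), the E-box in 3 (SLC7A5, SLC1A5 and SLC43A1) and the antioxidant motif in 5 (SLC7A5, SLC3A2, SLC7A1, SLC7A6 and SLC1A5). No 2 matches overlapped, and a match describes letters only.

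SLC7A5 was the most abundant of the 10 transcripts, and SLC7A11 the least. In the knockdown libraries the means ran from 98.8 FPKM for SLC7A5 to 1.00 FPKM for SLC7A11, and in the controls from 107 to 0.682 FPKM for the same genes. The order of the 10 means was the same in both groups: SLC7A5, SLC1A5, SLC3A2, SLC38A2, SLC7A1, SLC38A1, SLC43A1, SLC1A4, SLC7A6 and SLC7A11. Neighbours in that order did not overlap in their library values, except SLC1A5 and SLC3A2 in the knockdown libraries. The 3 leading genes made up 62.9% and 69.2% of the summed FPKM of the 10 genes in the knockdown libraries and 73.3% and 72.8% in the controls.

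**Figure D1:**
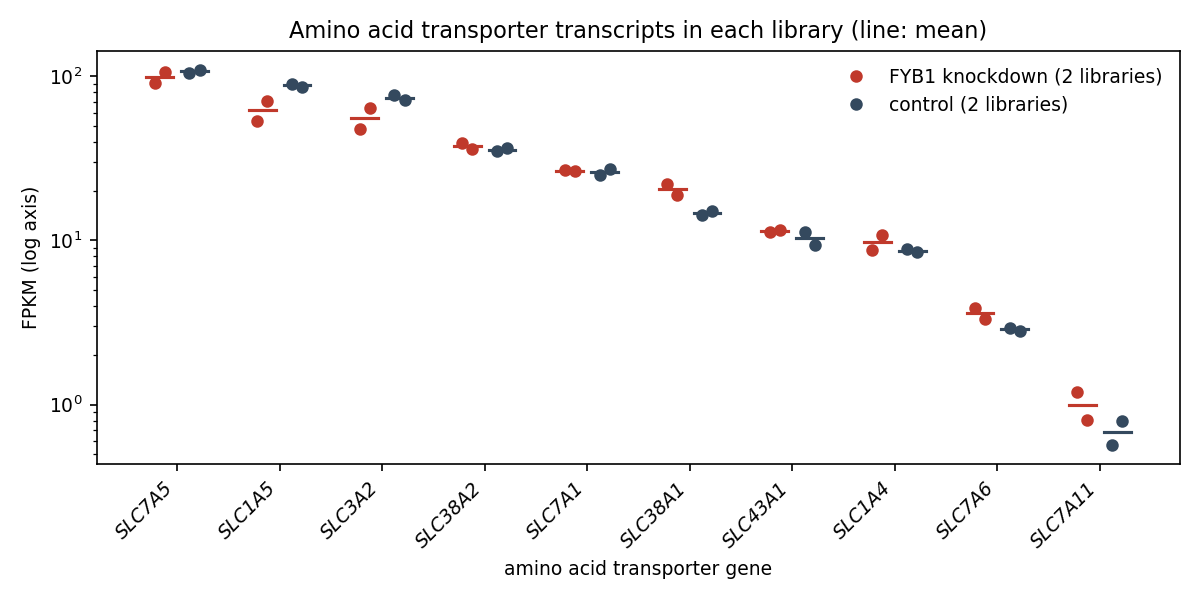
FPKM of the 10 amino acid transporter genes in each library, on a log axis, with FYB1 knockdown in red left of control in dark blue and a line at each mean. Both knockdown points of SLC1A5 and SLC3A2 lie below both control points. Both knockdown points of SLC38A1, SLC7A6 and, by a narrow margin, SLC7A11 lie above both control points.

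No transporter gene of the 10 passed limma-trend, the main test, on log2(FPKM + 1) over the 13172 genes that averaged 1 FPKM or more. It called 0 of 9 tested transporters lower and 0 higher, against a background of 0.137% and 0.0683% of all tested genes. Of the 9 tested, 1 was lower and 1 higher at an unadjusted p under 0.05 in that test, where 14.9% and 8.51% of all tested genes were. On recovered reads, limma-voom called 1 of the 9, SLC38A1, which was higher in the knockdown libraries (background 1.94% called higher), and 0 lower (background 5.8%). Over all genes limma-voom called 764 lower and 255 higher, and 207 lower and 254 higher with read sums as library totals. Both knockdown values lay below both control values for 2 of the 9 genes (background 34.6%) and above them for 2 (background 26%). The median log2 fold change of the 9 genes, knockdown minus control, was 0.07, beside -0.03 for all tested genes. These counts do not set the 10 genes apart from the other genes of the table.

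SLC38A1 had the highest fold change of the 9 tested genes and rose by limma-voom. This sodium-coupled carrier of neutral amino acids (chromosome 12, 46183063 to 46270017, minus strand, hg38) stood at 22.1 and 18.8 FPKM in the knockdown libraries, against 14.4 and 15.2 FPKM in the controls, from 4084, 3866, 2398 and 2555 reads in that order. Both knockdown libraries were above both controls. The knockdown mean was 20.5 ± 2.31 FPKM and the control mean 14.8 ± 0.575 FPKM (SD, n = 2 each), a ratio of 1.39. In bulk RNA such as this, fewer or more cells that express a gene cannot be told apart from less or more RNA per cell. Limma-trend gave a log2 fold change of 0.44 ± 0.12 (SE; adjusted p = 0.143), and limma-voom gave 0.47 ± 0.13 (adjusted p = 0.0478). That call held without knockdown library 2 (limma-voom adjusted p = 0.00839) and ended without knockdown library 1, control 1 or control 2 (0.105, 0.48 and 0.209). It also ended with a replicate block (limma-voom adjusted p = 0.087) and once a trend on exon length and GC content was removed (0.0611).

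SLC38A2, the adaptive carrier of the same family, lies 88.2 kb from SLC38A1 on the same strand, with 0 protein-coding genes between them. It stood at 39.3 and 36.0 FPKM in the knockdown libraries, against 35.2 and 36.4 FPKM in the controls. Its groups overlapped, and the log2 fold change was 0.07 ± 0.11 (limma-trend adjusted p = 0.709). The ratio of SLC38A1 to SLC38A2 was 0.563 and 0.523 in the knockdown libraries and 0.408 and 0.418 in the controls. Both knockdown ratios were thus higher than both control ratios, and the difference between the neighbours was not tested.

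SLC1A5, a sodium-dependent exchanger known for glutamine uptake (chromosome 19, 46774883 to 46788594, minus strand), had the lowest fold change of the 10. It stood at 53.3 and 70.7 FPKM in the knockdown libraries, against 89.9 and 86.3 FPKM in the controls, from 3274, 4824, 4988 and 4826 reads. Both knockdown values were below both controls, and knockdown library 1 was the lowest. The means were 62.0 ± 12.3 FPKM in the knockdown and 88.1 ± 2.58 FPKM in the controls (SD, n = 2 each), a ratio of 0.704. The log2 fold change of -0.51 ± 0.17 did not pass limma-trend (adjusted p = 0.166), nor did -0.52 ± 0.15 pass limma-voom (adjusted p = 0.0519). Without knockdown library 2 it passed limma-voom (log2 fold change -0.72, adjusted p = 0.00584), and without knockdown library 1 the fold change was -0.32 (0.122).

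SLC1A4, the relative of SLC1A5 that carries alanine, serine and cysteine, stood at 8.80 and 10.7 FPKM in the knockdown libraries, against 8.89 and 8.47 FPKM in the controls. The groups overlapped (log2 fold change 0.15 ± 0.12, limma-trend adjusted p = 0.463). The 2 SLC1 genes thus had fold changes of opposite sign, and neither passed either test.

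SLC3A2, the heavy chain that the light chains need at the cell surface (chromosome 11, 62856102 to 62888875, plus strand), stood at 47.5 and 64.2 FPKM in the knockdown libraries, against 76.5 and 71.7 FPKM in the controls. Both knockdown values were lower, and knockdown library 1 was the lowest of the 4. The means were 55.9 ± 11.8 FPKM in the knockdown and 74.1 ± 3.37 FPKM in the controls (SD, n = 2 each), a ratio of 0.754. The log2 fold change was -0.42 ± 0.17 (adjusted p = 0.22 by limma-trend and 0.103 by limma-voom). By limma-trend it was -0.20 when knockdown library 1 was left out. It was -0.63 when knockdown library 2 was left out, a setting in which limma-voom called it (adjusted p = 0.00775).

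SLC7A5, the light chain for leucine and other large neutral amino acids (chromosome 16, 87830023 to 87869488, minus strand), stood at 90.9 and 107 FPKM in the knockdown libraries, against 104 and 109.8 FPKM in the controls. The groups overlapped, with a log2 fold change of -0.12 ± 0.14 (limma-trend adjusted p = 0.623). Its direction turned positive under quantile normalization, with read sums as library totals and after the length and GC correction. SLC7A5P1, a pseudogene copy of SLC7A5, held 35 and 37 reads in the knockdown libraries and 43 and 54 in the controls, against 7952 and 10372, and 8220 and 8751 reads of SLC7A5 itself.

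The light chain SLC7A6, which exchanges cationic for neutral amino acids, stood at 3.87 and 3.33 FPKM in the knockdown libraries, against 2.93 and 2.83 FPKM in the controls. Both knockdown values were higher, and the log2 fold change was 0.24 ± 0.11 (adjusted p = 0.254 by limma-trend and 0.177 by limma-voom). Its exons share 3371 bases with SLC7A6OS on the opposite strand, and no source used here says if counting used strand, so reads of the pair cannot be told apart. SLC7A6OS stood at 2.30 and 2.45 FPKM in the knockdown libraries, against 3.46 and 2.96 FPKM in the controls. SLC7A6 exons also share 845 bases with AC020978.9, likewise on the opposite strand. AC020978.9 stood at 1.42 and 1.25 FPKM in the knockdown libraries, against 0.844 and 0.903 FPKM in the controls. The part of either overlap in the SLC7A6 values was not tested.

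SLC7A11, the light chain of the cystine and glutamate exchanger, had a mean below 1 FPKM over the 4 libraries and was not in the main test. It stood at 1.20 and 0.805 FPKM in the knockdown libraries, against 0.567 and 0.797 FPKM in the controls, from 213, 159, 91 and 129 reads. Knockdown library 2 lay just above control 2. With every gene in the test the log2 fold change was 0.25 ± 0.17 (limma-trend adjusted p = 0.58).

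Relative to the heavy chain transcript, SLC7A5 and the sum of the 3 light chains among the chosen genes were higher in the knockdown libraries. The ratio of SLC7A5 to SLC3A2 in FPKM was 1.91 and 1.66 in the knockdown libraries, against 1.36 and 1.53 in the controls. The summed FPKM of the 3 light chains over SLC3A2 was 2.02 and 1.73 in the knockdown libraries and 1.41 and 1.58 in the controls. Both ratios were higher in both knockdown libraries. SLC7A5 gave most of that sum, 90.9 of 96.0 and 106.7 of 110.9 FPKM in the knockdown libraries. In the controls it gave 104 of 107.5 and 109.8 of 113.5 FPKM. The ratios are thus not separate results. SLC7A5 itself overlapped between groups, while both knockdown values of SLC3A2 were lower. SLC7A8, a light chain outside the chosen genes, was not in the sum. With 2 libraries a group, an exact two-sided permutation test of such a ratio cannot give a p below 0.333.

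The remaining genes overlapped between groups. SLC7A1, the carrier of arginine and lysine, stood at 26.8 and 26.4 FPKM in the knockdown libraries, against 25.2 and 27.1 FPKM in the controls (log2 fold change 0.02 ± 0.10, limma-trend adjusted p = 0.898). SLC43A1, a facilitative carrier of large neutral amino acids, stood at 11.2 and 11.5 FPKM in the knockdown libraries, against 11.2 and 9.36 FPKM in the controls (log2 fold change 0.14 ± 0.11, adjusted p = 0.483). A missed threshold does not show that these genes were alike in both groups.

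**Figure D2:**
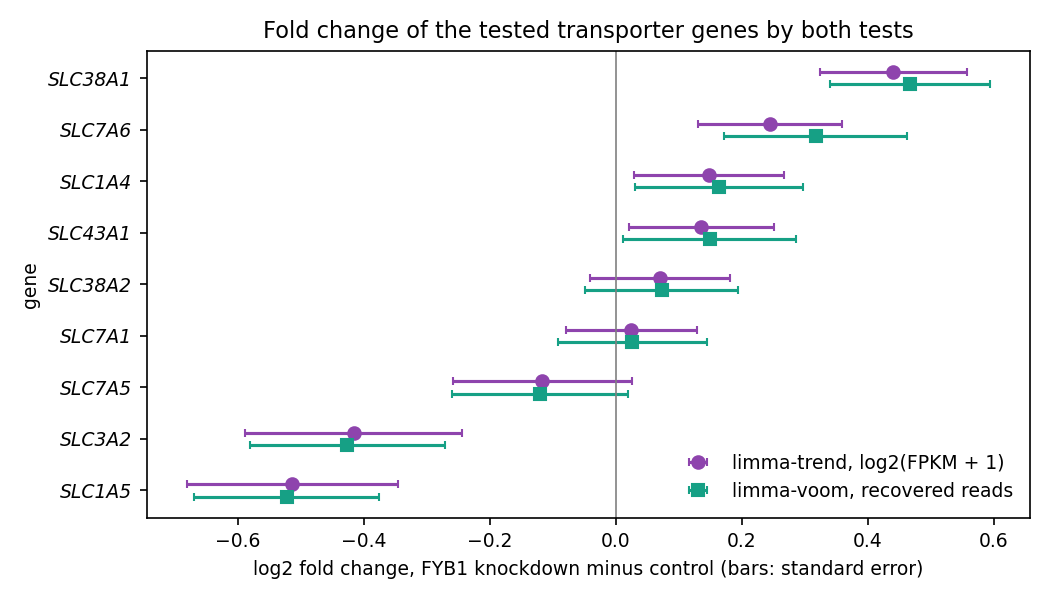
Log2 fold change, FYB1 knockdown minus control, of the 9 tested transporter genes with standard errors, by limma-trend on log2(FPKM + 1) in purple and by limma-voom on recovered reads in green. SLC38A1 lies highest at 0.44 and 0.47 and SLC1A5 lowest at -0.51 and -0.52.

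Gene length and base composition ran with these differences. Across the 9 genes the log2 fold change had a Spearman correlation of 0.68 with merged exon length and -0.70 with GC content, beside 0.22 and -0.29 across all 13172 tested genes. Genes are not independent replicates, and all points share the same 4 libraries. SLC38A1 has 10015 bases of merged exon and a GC content of 41.3%, and SLC1A5 has 3332 bases and 61.3%. After removal of a smooth trend on length and GC content the fold changes were 0.31 for SLC38A1, -0.32 for SLC1A5 and -0.30 for SLC3A2, none past the threshold of limma-trend (adjusted p = 0.0765, 0.101 and 0.158). Of the 9 genes, SLC1A5, SLC3A2, SLC38A1, SLC7A6, SLC1A4 and SLC43A1 kept their sign under every alternative in which they were tested.

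**Figure D3:**
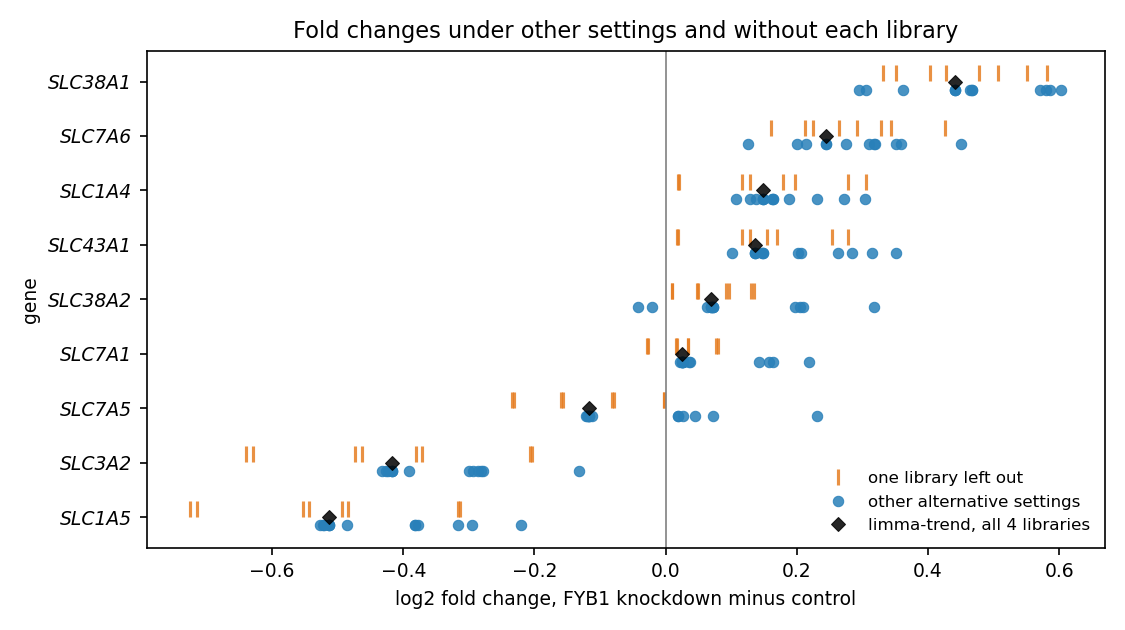
Log2 fold change, FYB1 knockdown minus control, of the 9 tested genes under limma-trend with all 4 libraries (black diamonds), with one library left out (orange bars) and under other settings (blue points). SLC38A1 stays between 0.29 and 0.60 and SLC1A5 between -0.72 and -0.22, while SLC7A5 lies on both sides of 0.

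Other transporters of amino acids were compared as lists, each to be read beside the 5.8% of all tested genes that limma-voom called lower and the 1.94% that it called higher. Of 33 further plasma membrane transporters, 22 were in the table and 5 reached 1 FPKM. Neither test called any of the 5 (0 by limma-trend and by limma-voom, with 2 lower and 1 higher at an unadjusted p under 0.05 in each, beside 14.9% and 8.51% of all tested genes by limma-trend), and they were picked for naming with their values known. SLC6A6, the taurine carrier, averaged 12.1 FPKM in the knockdown and 15.5 FPKM in the controls. SLC7A8, another light chain partner of SLC3A2, averaged 4.94 and 3.66 FPKM in knockdown and control (limma-voom adjusted p = 0.079). The system N carriers SLC38A3 and SLC38A5 had log2 fold changes of -0.36 and -0.24 by limma-trend, and SLC16A10, a carrier of aromatic amino acids, 0.03.

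Among 10 tested lysosomal and vesicular transporters, limma-voom called 1 higher and 0 lower (background 1.94% and 5.8%), and limma-trend called 0. SLC36A1, which exports small neutral amino acids from lysosomes, stood at 2.00 and 1.94 FPKM in the knockdown libraries, against 1.01 and 1.33 FPKM in the controls, from 258, 277, 117 and 156 reads. Both knockdown values were higher, with a limma-voom log2 fold change of 0.76 ± 0.19 (adjusted p = 0.0373). The call ended without knockdown library 1 and without control 1 (limma-voom adjusted p = 0.119 and 0.437), and after quantile normalization (0.0533). The list median by limma-trend was 0.10, beside -0.03 for all tested genes, and 0.22 with read sums as library totals, beside 0.08.

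Of 11 tested mitochondrial carriers, limma-voom called 2 lower and 0 higher (background 5.8% and 1.94%), and limma-trend 0. By limma-trend 7 of the 11 had negative and 4 positive fold changes. SLC25A39, the mitochondrial glutathione carrier, stood at 35.9 and 49.5 FPKM in the knockdown libraries, against 64.7 and 64.8 FPKM in the controls (limma-voom log2 fold change -0.62 ± 0.15, adjusted p = 0.0348). SFXN1, the mitochondrial serine carrier, stood at 13.2 and 13.5 FPKM in the knockdown libraries, against 18.7 and 18.1 FPKM in the controls (limma-voom log2 fold change -0.47 ± 0.12, adjusted p = 0.0363). Both calls held without knockdown library 2 and ended without any other library (limma-voom adjusted p of 0.0718 to 0.442), and they ended with read sums as library totals (0.0605 and 0.0846). That of SFXN1 also ended with a replicate block (limma-voom adjusted p = 0.0803), and both ended after quantile normalization (0.0607 and 0.0676). The glycine carrier SLC25A38 had a limma-trend log2 fold change of -0.33, the ornithine carrier SLC25A15 -0.28, SLC25A29, a carrier of basic amino acids, 0.12 and SFXN3 0.19. None of the 4 was called. The list median was -0.10 and turned to 0.017 with read sums as library totals.

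Genes of the pathways known to regulate these transporter genes were examined next. Of 13 regulators, limma-voom called 1 lower and 0 higher (background 5.8% and 1.94%), and limma-trend called 0. MYC stood at 21.7 and 24.4 FPKM in the knockdown libraries, against 42.1 and 37.7 FPKM in the controls, and both knockdown values were lower. Its limma-voom log2 fold change was -0.79 ± 0.13 (adjusted p = 0.00802), and of the 4 libraries left out in turn it was control 1 whose removal ended the call (0.0982). ATF4 stood at 171 and 228 FPKM in the knockdown libraries, against 278 and 265 FPKM in the controls, with a log2 fold change of -0.46 ± 0.16 that did not pass (limma-voom adjusted p = 0.09). NFE2L2 and its partner KEAP1 were not called, with limma-trend log2 fold changes of 0.22 and -0.13, and the ATF4 target TRIB3 had 0.28 (adjusted p = 0.278). NFE2L2, KEAP1, ATF4 and TRIB3 were picked for naming with their values known.

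Amino acid supply is read by mTORC1, a growth-promoting kinase complex on lysosomes. Of 36 tested genes of this sensing system, limma-voom called 5 lower and 2 higher (background 5.8% and 1.94%), and limma-trend 0. With read sums as library totals limma-voom called 0 lower and 1 higher. MLST8, a subunit of mTORC1, stood at 13.9 and 16.2 FPKM in the knockdown libraries, against 23.4 and 22.0 FPKM in the controls (limma-voom adjusted p = 0.0268). RHEB, the small GTPase that activates the kinase, averaged 21.3 ± 2.06 and 31.1 ± 1.29 FPKM in knockdown and control (SD, n = 2 each; 0.0303), and LAMTOR2, of the scaffold that anchors it to lysosomes, 29.7 ± 7.22 and 49.9 ± 7.27 FPKM (0.0294). The scaffold genes LAMTOR4 and LAMTOR5, picked with their values known, were lower as well (limma-voom adjusted p = 0.0464 and 0.0363), while LAMTOR1 and LAMTOR3 of the same scaffold overlapped between groups (0.664 and 0.819). SESN3, a sestrin picked with its values known, averaged 6.33 ± 0.938 FPKM in the knockdown and 4.17 ± 0.719 FPKM in the controls, and was 1 of the 2 called higher (0.041). Each of the 6 calls named here ended without knockdown library 1 and without control 1, and with read sums as library totals (limma-voom adjusted p of 0.0542 to 0.0822). Those of MLST8, RHEB, LAMTOR4 and LAMTOR5 ended without control 2 as well (0.0858, 0.122, 0.0559 and 0.121). After quantile normalization MLST8 alone of the 6 stayed called (0.0464), with 0.0506 to 0.0775 for the others, and LAMTOR4 also missed the threshold once the trend on exon length and GC content was removed (0.0719). The list median was -0.05 by limma-trend and 0.07 with read sums as library totals.

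Enzymes that use imported cystine and glutamine had 2 of 18 called lower and 0 higher by limma-voom (background 5.8% and 1.94%), and 0 called by limma-trend. GPT2, the mitochondrial alanine transaminase, stood at 7.03 and 9.54 FPKM in the knockdown libraries, against 15.9 and 15.9 FPKM in the controls (limma-voom log2 fold change -0.95 ± 0.15, adjusted p = 0.00755). This call held without each library in turn (limma-voom adjusted p of 0.00382 to 0.0329). GPX4, the glutathione peroxidase of membrane lipids, stood at 109.6 and 165 FPKM in the knockdown libraries, against 233 and 207 FPKM in the controls (limma-voom adjusted p = 0.0383), a call that held only without knockdown library 2 (0.00525) of the 4 libraries and ended with read sums as library totals (0.0603) and after quantile normalization (0.0706). The list median was -0.17 by limma-trend, -0.065 under quantile normalization and -0.035 with read sums as library totals.

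Partners and trafficking factors of the transporters had 1 of 10 called higher and 0 lower by limma-voom (background 1.94% and 5.8%), and 0 called by limma-trend. ARRDC3, an arrestin-like adaptor that directs membrane proteins to degradation, stood at 4.71 and 4.91 FPKM in the knockdown libraries, against 2.41 and 3.26 FPKM in the controls (limma-voom log2 fold change 0.78, adjusted p = 0.028). The call ended without knockdown library 1 and without control 1 (limma-voom adjusted p = 0.0898 and 0.358). The most abundant of this list, BSG, a chaperone of transporters picked with its values known, averaged 101 FPKM in the knockdown and 141 FPKM in the controls (limma-voom adjusted p = 0.0709).

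**Figure D4:**
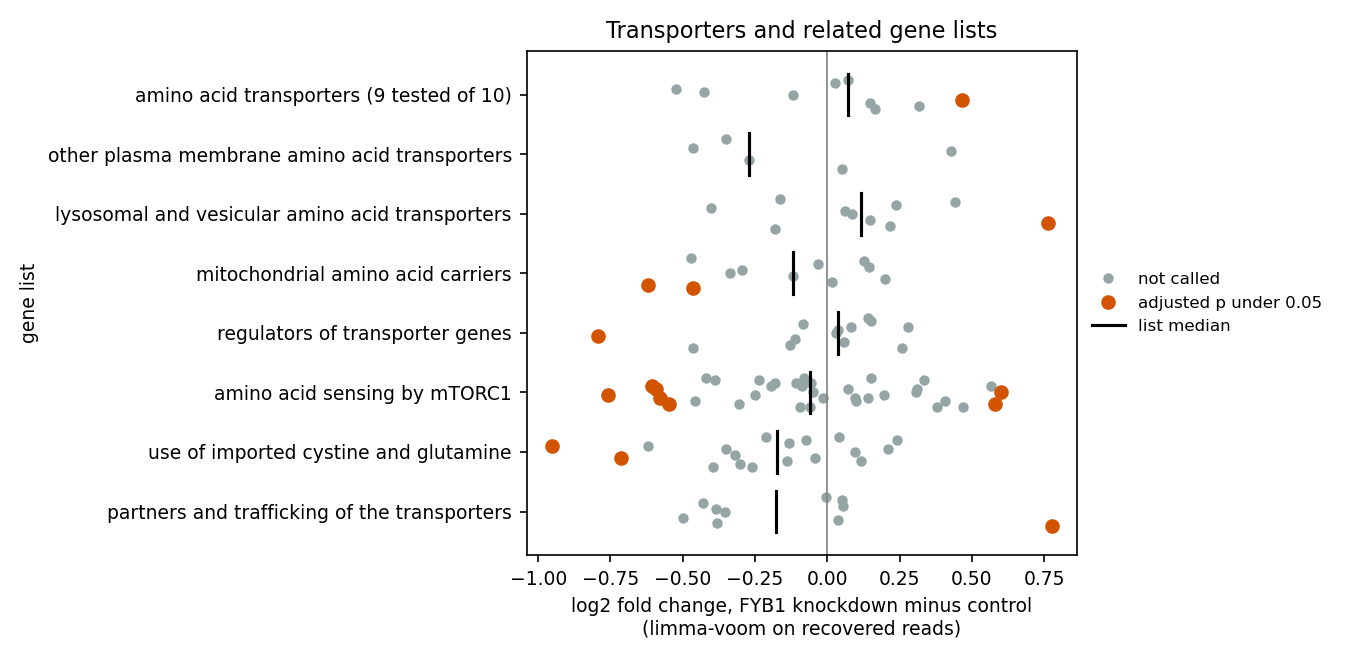
Limma-voom log2 fold change, FYB1 knockdown minus control, of each tested gene in the 10 chosen transporters and in 7 related lists, with called genes in orange and a black line at each list median. SLC38A1 at 0.47 is the called gene of the top row, and GPT2 at -0.95 the lowest called gene of all lists shown.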

How the data were processed

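RNA abundance was measured in 2 FYB1 knockdown and 2 control libraries. The submitters' processing notes name HISAT2 2.0.5 as aligner and hg38 as build, while the counter and the use of strand are not stated there. The deposited values are FPKM as scaled by the authors. Multiplied by the merged exon length in GENCODE 29 they are whole multiples of 1 step in each library (100% of genes, tolerance 0.001), which gave whole reads. The authors divided by totals of 18436617 and 20480491 in the knockdown and 16648943 and 16789004 in the controls. These are not plain sums of reads. Their relative sizes (1.02, 1.14, 0.924 and 0.931 in that order) equal median-of-ratios size factors of the recovered reads. The alternative with read sums as library totals leaves that scaling out.

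Limma-trend (limma 3.58.1, R 4.3.3) on log2(FPKM + 1), pseudocount 1, was the main test, with group as the single term, over 13172 genes averaging 1 FPKM or more. Benjamini-Hochberg adjustment ran over all of them, with a threshold of 0.05. Its fold changes understate those of genes with low values. Limma-voom took the recovered reads, with library sizes set to the authors' totals. Both tests were run on simulated counts with known fold changes and no trend on length or GC content. Those runs do not show how the tests behave where such trends exist. The members and lists were chosen with earlier results of these data known. The named genes are FYB1, the 10 members, other transporters called by either test or among the 6 with the highest mean, and up to 4 called members of each other list, otherwise the 2 with the highest mean. Exceptions are marked where they appear. No column of the table was left out. Some items are not reported here.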

Additional observations from a re-analysis of the deposited data

How the results depend on the processing

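Over all genes 27 were called by limma-trend. The count was 781 with a replicate block, 45 under quantile normalization, 76 with read sums as library totals, 0 with every gene in the test, where FYB1 had an adjusted p of 0.264, 181 with a minimum mean of 5 FPKM and 221 once the length and GC trend was removed. Leaving out 1 library gave 0 to 406 by limma-trend. By limma-voom the count was 1019, with 1072 under the replicate block, 461 with read sums, 513 after quantile normalization and 1490 once that trend was removed. Limma-voom called 102 and 3877 without knockdown library 1 and 2, and 136 and 496 without control 1 and 2. Of the transporters 0 were called by limma-trend and 1 by limma-voom. Limma-voom also called 1 after quantile normalization and with read sums, 0 with the replicate block, and 0 to 4 without 1 library. The 4, without knockdown library 2, were SLC1A5, SLC3A2, SLC38A1 and SLC7A6. The transporter median of 0.07 was 0.21 under quantile normalization and 0.20 with read sums, and by limma-voom 0.20 and 0.21 in the same order. The median of all genes was -0.03, with 0.006 under quantile normalization and 0.08 with read sums. By limma-voom these alternatives gave all genes 0.005 and 0.09 in the same order.

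SLC7A5 turned to 0.23 under quantile normalization, 0.019 with read sums and 0.026 after the length and GC correction, and by limma-voom to 0.073, 0.019 and 0.044. SLC7A1 ranged from -0.027 to 0.077 without 1 library, and was -0.028 by limma-voom without control 1. SLC38A2 turned to -0.020 after the length and GC correction and to -0.043 by limma-voom. The cause of these changes was not tested.

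The labels do not say that equal replicate numbers mark a shared culture, so the numbers were not used as pairs. Same-numbered libraries had a correlation of -0.21 in their deviations from the group means. With 2 libraries a group, the other pairing gives the same size with the opposite sign. The correlation thus cannot decide if libraries were paired. A crossed block, chosen after seeing the data like the limma-voom alternatives, called 1910 genes and 2 transporters. Depth limits SLC7A11, with 91 to 213 reads.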
